A study of Arabidopsis thaliana with 16 samples.

Results

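Roots were compared with shoots in wild-type Arabidopsis thaliana plants grown for 7 weeks in hydroponic culture on control medium. The comparison used the 4 of 16 arrays whose labels give this age, the WT genotype, the Control condition and root or shoot as tissue, 2 arrays for roots and 2 for shoots. All probe sets other than the array's own controls were eligible, 22746 of 22810, and 17059 passed a filter on dim signals. The root group was wild-type root tissue, and the shoot group was wild-type shoot tissue. Both came from plants given 4 weeks of control conditions and then a further 3 weeks on control medium. The other arrays of that experiment held roots and shoots of wild-type plants kept for the last 3 weeks on zinc-deficient (Zn-deficient) medium. They entered the fit so that all 4 groups shared an estimate of the spread, and they counted in the filter on dim signals. Wild-type roots and shoots of 21-day seedlings, grown on solidified agar with 7 days before and 14 days after transfer to new control plates, served as a second comparison with 2 arrays per organ. Roots and shoots of 21-day hma2 hma4 double mutant seedlings, grown alongside, entered the 21-day fit for the spread and the filter on dim signals. Whether the replicates were grown or harvested separately is not given in the labels. The p-values therefore rest on array-to-array spread that may be no more than technical. The number of arrays, 2 in each group, limits the precision of every value.

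Roots anchor the plant, take up water and mineral ions and exude metabolites into the medium, and their cells hold plastids without thylakoids. Shoots of vegetative Arabidopsis are mostly leaf tissue, whose mesophyll cells devote much of their protein to the photosystems and the Calvin cycle. Genes for photosynthesis are split between the nucleus and the plastid genome, and the plastid copies are transcribed inside the organelle. Signals below are linear values in the units of the authors' table, in which every array was scaled to a trimmed mean of 500. A log2 difference is roots minus shoots after 8 units were added to every signal, and a fold is that difference in linear form unless it is given as "at least". A probe set passed the test where limma's Benjamini-Hochberg adjusted p was under 0.05, and only such differences are called higher or lower. Signals at or under 52.2, the highest value of 3 control probe sets for bacterial transcripts, are called background, and a fold against an organ whose arrays both lie there is a lower bound. For such genes the log2 difference is a fitted value, set in part by the added 8 units, and not a measured size. Whole organs were measured, so fewer cells of a type and less RNA per cell cannot be told apart.

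Summed marker signals matched the labelled organs. The 3 root markers matched to a probe set were EXPA7 and EXPA18 of root hairs and PYK10 of root endoplasmic reticulum bodies. They summed to 7288 and 7111 on root arrays and to 199.8 and 406 on shoot arrays. The 7 shoot markers matched to a probe set summed to 299 and 543 on root arrays and to 47010.4 and 44714 on shoot arrays. They are LHCB4.1, LHCB4.2 and LHCB4.3 of mesophyll, FAMA and EPFL9 of stomata, and YAB3 and YAB5 of leaf primordia. PYK10 made up most of the root marker sum on root arrays, and the LHCB4 genes most of the shoot marker sum on shoot arrays. FAMA did not pass the test, as given below. The pollen marker LAT52 stayed between 10.2 and 15.9 on all 4 arrays, within background. Replicate arrays correlated across probe sets on the deposited log2 scale with r = 0.961 in roots and 0.943 in shoots. The 100 brightest probe sets held 9.28% and 9.55% of the summed signal on root arrays and 13.0% and 12.4% on shoot arrays, and array medians were 202 and 195 in roots and 146 and 150.1 in shoots. Actin probe sets at the 3' end read 3.91 and 4.25 times those at the 5' end on root arrays and 2.70 and 2.36 times on shoot arrays.

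The organs differed at 9358 of 17059 probe sets, 54.9%, of which 5975 (35.0% of those tested) were higher in roots and 3383 (19.8%) lower. With a log2 difference of at least 1 as well, 5121 were higher and 2967 lower. With a difference of at least 3, which is 8-fold, 1055 (6.18%) were higher and 1137 (6.67%) lower. Signal lay above background on both root arrays and at or below it on both shoot arrays for 1335 of 22746 probe sets (5.87%), and the reverse held for 1095 (4.81%). Root and shoot arrays did not overlap at 82.0% of tested probe sets, including all 9358 that passed. Non-overlap therefore adds no support to a call. The split between directions depended on the scaling. Roots were the higher organ in 63.8% of calls under the authors' scaling, in 56.6% after quantile normalization (5164 higher, 3958 lower) and in 49.0% after median centring (4310 higher, 4485 lower). The median log2 difference over all tested probe sets was 0.35 as deposited, 0.16 after quantile normalization and -0.05 after median centring, so a small positive value for one gene lies near the middle of all genes. Without the first root array 3892 probe sets were higher in roots and 2554 lower. Under all 3 scalings 4300 probe sets were higher in roots and 3304 lower, and none that passed in one direction passed in the other.

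**Figure D1:**
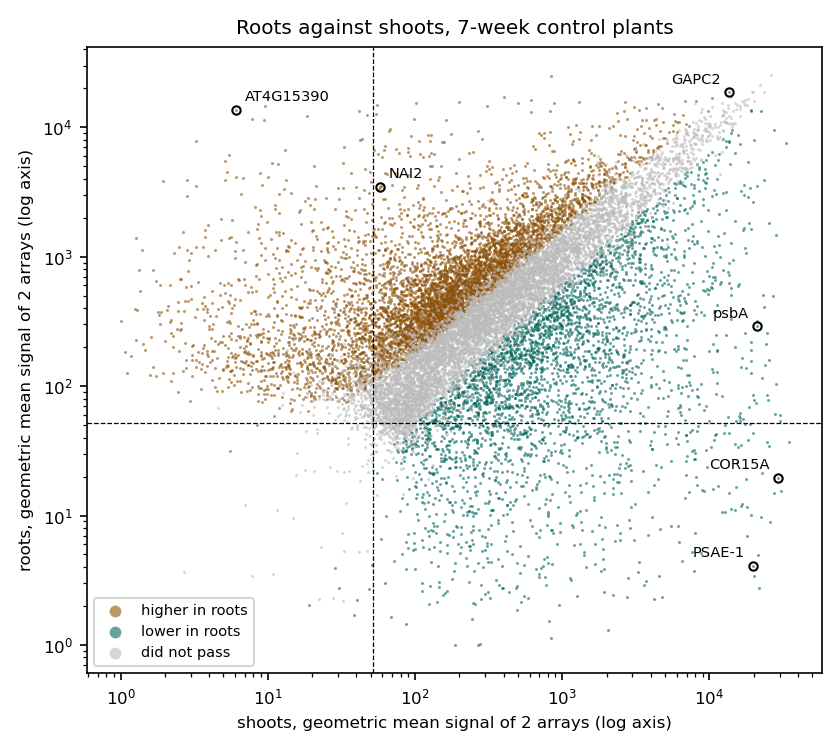
Geometric mean signal of the 2 root arrays (vertical, log axis) against that of the 2 shoot arrays (horizontal, log axis) for the 17059 tested probe sets of 7-week control plants, coloured by the test; dashed lines mark the background level of 52.2. The 5975 brown points are higher in roots, the 3383 green points lower, and AT4G15390 and PSAE-1 sit at opposite corners.

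Nuclear genes for photosynthesis tested from the lists were lower in roots without exception, 11 of 11, against 19.8% of all tested probe sets. All 11 were lower by 110.1-fold or more on the log2(signal + 8) scale. They code for light-harvesting antennae (3 of 20 listed loci were matched to a probe set), photosystem and electron transport subunits (5 of 32) and Calvin cycle enzymes (3 of 21). The median log2 difference was -7.10 for the antennae, -8.21 for the photosystem group and -6.99 for the Calvin cycle, against 0.35 over all tested probe sets. With organs that lay within background set at 52.2, the photosystem median was -8.15 and the other medians kept their values.

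PSAE-1, a stromal subunit of photosystem I, had 1.77 and 9.43 signal units in roots, against 19968 and 19514 in shoots. Both root values were within background, so it was at least 378-fold lower in roots (log2 difference -10.56 ± 0.35 SE, adjusted p = 2.21e-07). No root array came near a shoot array. LHCB4.2, a minor antenna protein of photosystem II, had 8.47 and 13.6 in roots and 11683 and 12734 in shoots, at least 234-fold lower. Its close relative LHCB4.1 had 129 and 348 in roots and 25397 and 23275 in shoots, 110.1-fold lower. Root signal for LHCB4.1 was therefore above background on both arrays while that for LHCB4.2 was not, though probe sets differ in brightness and their levels are not compared here. LHCB4.3, another gene of the family, had 29.0 and 60.7 in roots and 7455 and 6361 in shoots, with a log2 difference of -7.10.

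The small photosystem II subunit PSBW had 49.7 and 52.1 in roots, both within background, and 18120.4 and 16709 in shoots, at least 333-fold lower. PSAN, a subunit of photosystem I, had 37.7 and 34.4 in roots and 15982 and 13728 in shoots, at least 284-fold lower. PSBY, another small subunit of photosystem II, and ATPC1, the gamma subunit of the chloroplast ATP synthase, had log2 differences of -7.85 and -6.79. AT2G26500, a small subunit of the cytochrome complex between the photosystems, was among the brightest shoot signals, with 24.3 and 76.4 in roots and 20414 and 19108 in shoots. AT4G01150, which bends thylakoid membranes at grana margins, had 347 and 294 in roots and 22536 and 19793 in shoots, 64.6-fold lower. Of the Calvin cycle, rubisco activase RCA had 150.2 and 129 in roots and 18061 and 17279 in shoots. Phosphoribulokinase PRK had 38.1 and 49.9 in roots, both within background, and 12938 and 12042 in shoots, at least 239-fold lower. SBPASE, the phosphatase acting on sedoheptulose bisphosphate, had a log2 difference of -6.99. The limma adjusted p of these genes lay at or under 2.11e-06.

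Pathways next to photosynthesis were less uniform. Among photorespiration genes 2 of 3 tested were lower and 1 higher, against 19.8% lower and 35.0% higher over all tested probe sets. HPR1, the peroxisomal hydroxypyruvate reductase, had 31.4 and 63.2 in roots and 8298 and 6602 in shoots, 139.9-fold lower. AT1G11860, the T protein of glycine decarboxylase, had 1113 and 1286 in roots and 11728 and 6697 in shoots, 7.37-fold lower. AT1G80380, glycerate kinase, which closes the cycle in the chloroplast, went the other way with 3609.7 and 4429 in roots and 2472 and 1836 in shoots (log2 difference 0.91 ± 0.26, adjusted p = 0.0176). After median centring that difference was 0.50 and did not pass (adjusted p = 0.14).

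In pigment synthesis 2 of 3 tested genes were lower, where 19.8% of all were. PORB, the light-dependent protochlorophyllide reductase, had 10.1 and 6.87 in roots, both within background, and 4786 and 6265 in shoots, at least 105-fold lower. CHLM, an earlier enzyme of the chlorophyll branch, was 15.3-fold lower, and LYC, lycopene cyclase of carotenoid synthesis, had 669 and 814 in roots and 976 and 668 in shoots and did not pass (adjusted p = 0.730). Both starch and sucrose genes tested were lower in roots, 2 of 2 against the same 19.8%: the sugar exporter SWEET11 by 14.3-fold, and APL3, a large subunit of the first committed enzyme of starch synthesis, by at least 6.66-fold.

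**Figure D2:**
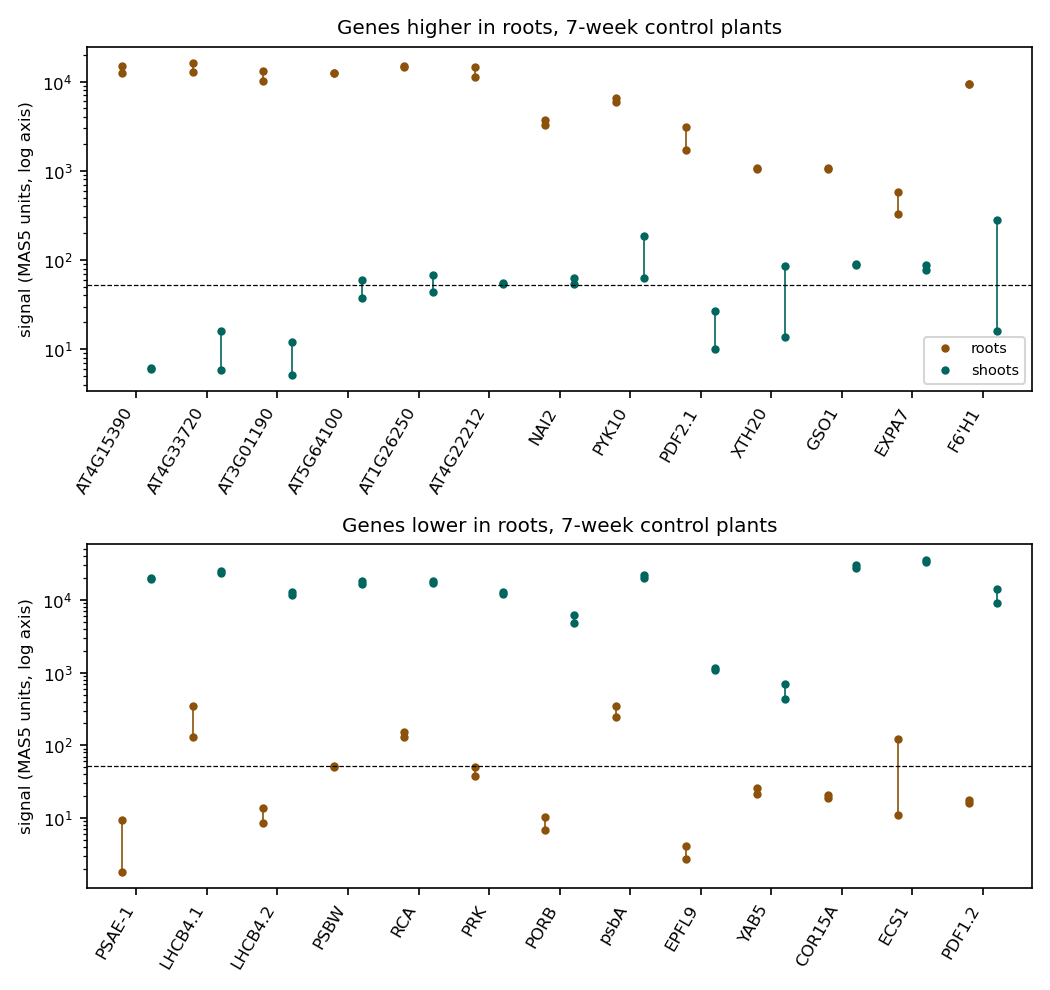
Signal on each of the 2 root arrays (brown, left of each pair) and 2 shoot arrays (green, right) of 7-week control plants, on a log axis, for genes higher in roots (upper panel) and lower in roots (lower panel); a line joins replicates and the dashed line is the background level of 52.2. Roots and shoots do not overlap for any gene drawn, as at every probe set that passed. Replicate shoot arrays spread most for F6'H1, at 16.1 and 278.

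Of 68 tested plastid-encoded genes 57 (83.8%, against 19.8% of all tested probe sets) were lower in roots, with none higher and a median log2 difference of -3.01. How evenly the labelling captured organelle transcripts was not tested, so these values are signals and not RNA amounts. The groups by gene complex were formed after their values were seen. All 15 genes of photosystem II, 5 of photosystem I, 6 of the cytochrome complex, 6 of the ATP synthase and 10 of the NDH complex were lower, with medians of -4.04, -3.35, -3.07, -2.93 and -3.69. psbA, which codes for the D1 protein of the photosystem II core, had 351 and 242 in roots and 22101 and 19830.5 in shoots, 69.8-fold lower. ndhJ had the most negative value of the plastid genes, with 66.1 and 72.0 in roots and 8479 and 4634 in shoots (-6.35 ± 0.38 SE, adjusted p = 3.03e-06). rbcL, the large subunit of rubisco, had 359 and 503 in roots and 5306 and 3142 in shoots, 9.45-fold lower. The lowest shoot value of each of these 3 genes was above its highest root value, as at every probe set that passed as lower.

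The plastid genes for transcription and translation differed less. Of 15 ribosomal protein genes 8 were lower, with a median of -1.23, and none of 3 RNA polymerase subunit genes passed in limma under the authors' scaling (1 of the 3 had an unadjusted p under 0.05). After quantile normalization 1 of the 3 was lower, and after median centring 2 were. The 7 tested genes that lie in one stretch from rps19 to rpoA had a median of -0.39 and none passed under the authors' scaling or after quantile normalization, while 2 were lower after median centring (1 of the 7 had an unadjusted p under 0.05 as deposited). rpl14, a ribosomal protein gene of that stretch, had 1201 and 1313 in roots and 1333 and 629 in shoots. The replicate shoot arrays differed by more than 2-fold there while the root arrays lay between them. The other 9 ribosomal protein genes had a median of -2.72, and 8 were lower. rps4 was one of them, with 809 and 992 in roots and 12739 and 8751 in shoots.

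The first shoot array exceeded the second for 61 of 68 plastid genes, and the summed plastid signal was 58225 and 62245 on root arrays, against 496828 and 386726 on shoot arrays. The count of plastid genes lower in roots ranged from 51 to 60 when arrays were left out. The part of the difference between shoot arrays in the results for the rps19 to rpoA stretch was not tested. Of 8 mitochondrion-encoded genes 2 were higher in roots, nad5 and nad9, and none lower, with a median of 0.15. Over all tested probe sets 35.0% were higher, and 1 of the 8 was higher after quantile normalization or median centring.

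**Figure D3:**
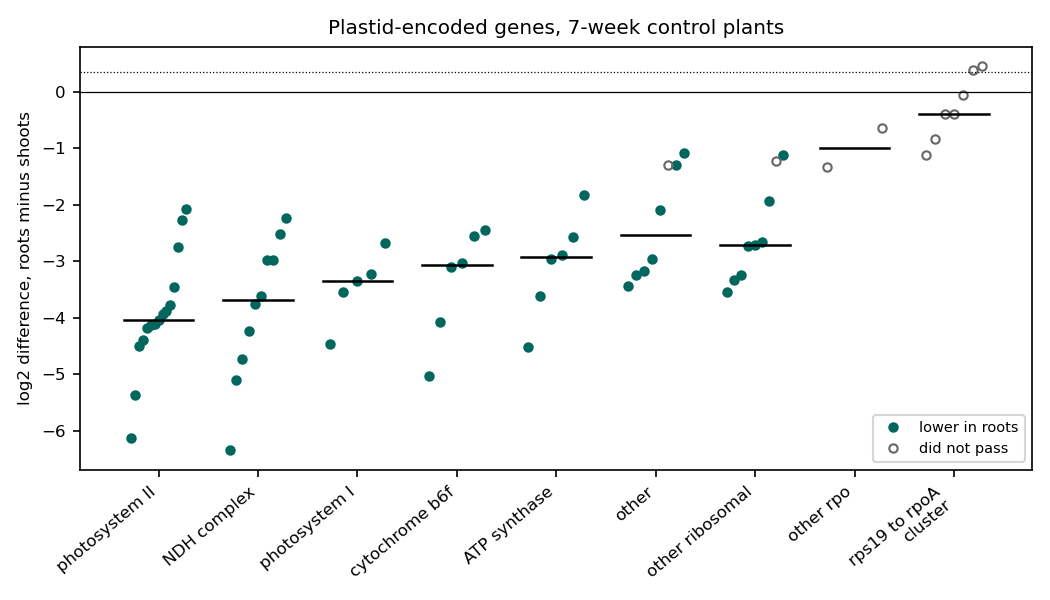
Log2 difference, roots minus shoots, of the 68 tested plastid-encoded genes of 7-week control plants by gene group; filled points passed the test under the authors' scaling, open points did not, bars are medians and the dotted line is the median of all tested probe sets, 0.35. The photosystem, cytochrome, ATP synthase and NDH groups hold filled points only, and all 7 points of the rps19 to rpoA cluster are open.

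Leaf and stomatal regulators were lower in roots at 3 of the 4 genes tested, against 19.8% of all tested probe sets. Of the loci listed, 11 for stomata and 12 for leaves, 2 from each list were tested. EPFL9, the peptide that promotes stomata, had 4.07 and 2.70 in roots and 1089.7 and 1169 in shoots, at least 21.6-fold lower. FAMA, a transcription factor that ends guard mother cell division, had 60.02 and 42.7 in roots and 126 and 107 in shoots and did not pass (adjusted p = 0.0669). FAMA passed as lower after quantile normalization (adjusted p = 0.0239) and after median centring (adjusted p = 0.0128), so that all 4 genes were lower under those scalings. YAB3 and YAB5, transcription factors of the lower leaf face, had 42.7 and 54.3 and 25.5 and 21.2 in roots, against 559 and 631 and 700.5 and 436 in shoots. Both were lower in roots, and neither gene's arrays overlapped between organs, as at every probe set that passed.

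Other large falls lay outside the lists. COR15A, a protein that protects chloroplast membranes in freezing, had 20.7 and 18.5 in roots and 30401 and 27616 in shoots, at least 555-fold lower (log2 difference -10.04 ± 0.42 SE, adjusted p = 5.57e-07). ECS1, a cell wall protein, was the brightest shoot signal among genes at least 8-fold apart, with 11.1 and 122 in roots and 35836 and 33136 in shoots. Its root arrays lay on either side of background. The plant defensin PDF1.2 had 15.9 and 17.8 in roots and 14412 and 9041 in shoots, at least 219-fold lower. AT2G41090, a calmodulin-like protein, had 13.7 and 16.4 in roots and 14443 and 12887 in shoots. The lectin gene AT5G03350 had 4.72 and 2.96 in roots and 4830.2 and 12613 in shoots, and the lipid transfer protein gene AT5G55450 had 2.70 and 2.06 in roots and 2619 and 8733 in shoots. Shoot replicates of both differed by more than 2-fold, far less than the gap to roots. AT5G38980 had 40.1 and 30.2 in roots and 17961 and 15089 in shoots. AT2G25510 was a bright shoot signal that roots also held, with 1245 and 2695 in roots and 25909 and 25110.2 in shoots, 13.9-fold lower.

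The largest rises in roots were on genes at or near background in shoots. AT4G15390, an acyltransferase of the family that acylates many plant metabolites, had 12639 and 14865 in roots and 6.22 and 6.04 in shoots, at least 262-fold higher in roots (log2 difference 9.92 ± 0.27 SE, adjusted p = 2.04e-07). AT4G33720, a secreted protein of the family of pathogenesis-related protein 1, had 12880.0 and 16309 in roots and 16.1 and 5.77 in shoots, at least 277-fold higher. AT1G12010, an enzyme of the last step of ethylene synthesis, had 5351 and 5558 in roots and 4.90 and 5.41 in shoots, at least 104-fold higher. In all 3 genes the shoot arrays read no more than 16.1 units.

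AT1G26250, an extensin-like protein of the cell wall, had 14949 and 14664 in roots and 68.2 and 44.2 in shoots, 235-fold higher. The papain-like protease AT3G19390 had 4078 and 5048 in roots and 7.32 and 3.77 in shoots, AT5G26280 had 3182 and 4784 in roots and 3.11 and 2.54 in shoots, and AT5G43520 had 4294 and 6264 in roots and 22.5 and 6.14 in shoots. All shoot values of these 3 genes were within background. AT4G22212, a small protein of the defensin-like family, had 11225 and 14493 in roots and 55.0 and 53.6 in shoots. The fructokinase AT2G31390 was bright in roots at 16018 and 15337, against 775 and 2208 in shoots, where replicates differed by more than 2-fold, and was 11.9-fold higher (adjusted p = 2.37e-04).

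Class III peroxidases, secreted haem enzymes that use hydrogen peroxide to cross-link or loosen the cell wall, recurred among the strongest root signals. This list was added after its values were seen, so its counts describe and do not test. Of 73 listed loci 45 were tested, of which 31 (68.9%, against 35.0% of all tested probe sets) were higher in roots and 2 lower, with a median log2 difference of 3.77, and 16 had both shoot arrays within background. With organs within background set at 52.2 that median was 2.94. AT3G01190 had 10255 and 13068 in roots and 11.9 and 5.10 in shoots, at least 222-fold higher. AT5G17820 had 3865 and 4269.9 in roots and 6.92 and 6.69 in shoots, at least 77.8-fold higher. AT5G66390 had 1932 and 1990.4 in roots and 4.84 and 4.80 in shoots, at least 37.5-fold higher. The brightest of those at least 8-fold apart, AT5G64100, had 12345 and 12519.9 in roots and 37.8 and 59.5 in shoots, 224-fold higher.

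Not every peroxidase followed. PRXR1 was bright in both organs, with 17872 and 19809.9 in roots and 17047 and 22443 in shoots, and did not pass (adjusted p = 0.815). Its log2 difference was -0.06 as deposited, 0.59 after quantile normalization, where it passed as higher (adjusted p = 0.0432), and -0.46 after median centring, where it did not pass. AT5G58390 had 3.22 and 24.7 in roots and 324 and 632 in shoots, at least 8.66-fold lower. AT5G40150, the other lower one, had 185 and 141 in roots and 278 and 396 in shoots (2.00-fold, adjusted p = 0.0354). Under median centring 29 of the 45 were higher and 4 lower.

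Root genes for beta-glucosidase storage were higher as well. Of the 3 tested genes for the endoplasmic reticulum bodies that store beta-glucosidases, all 3 were higher, against 35.0% of all tested probe sets, with a median of 5.72. PYK10, the myrosinase-type beta-glucosidase of those bodies, had 6519 and 5947 in roots and 63.3 and 187 in shoots, 52.8-fold higher. NAI2, a protein needed to form them, had 3744 and 3221 in roots and 54.2 and 62.4 in shoots, 52.6-fold higher. NAI1, the transcription factor upstream of both, had 264 and 385 in roots and 27.4 and 56.8 in shoots, 6.83-fold higher (adjusted p = 3.63e-04).

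Coumarins are phenolic compounds that roots release to mobilise iron. Of 5 tested genes for their synthesis and export, 4 were higher, against that same 35.0%, and none lower, with a median of 1.68. F6'H1, the hydroxylase that makes scopoletin's precursor, had 9382 and 9435 in roots and 16.1 and 278 in shoots. The shoot replicates differed widely, and the log2 difference was 6.83 ± 0.89 SE (adjusted p = 2.67e-04). AT3G12900, which hydroxylates scopoletin to fraxetin, had 1393 and 846 in roots and 109.8 and 109 in shoots, 9.29-fold higher. AT1G28680, coumarin synthase, was higher by a log2 difference of 1.68. F6'H2, a second hydroxylase, had 192 and 250.2 in roots and 72.8 and 113 in shoots. It passed as deposited (adjusted p = 0.0147) but not after quantile normalization or median centring (adjusted p = 0.0765 and 0.0955). The glucosidase BGLU42 did not pass (adjusted p = 0.0523).

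Few root surface and barrier genes were matched to a probe set in the annotation used. The matches were 2 of 11 root hair and epidermis loci and 1 of 21 Casparian strip and suberin loci. The root hair expansins EXPA7 and EXPA18 were 4.97-fold and 5.30-fold higher in roots. EXPA7 had 332 and 584 in roots and 77.7 and 87.2 in shoots. GSO1, the receptor kinase that guards the continuity of the Casparian strip in the endodermis, had 1081 and 1033 in roots and 89.9 and 88.7 in shoots, 10.9-fold higher (adjusted p = 2.58e-05).

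Of 6 tested genes for handling Zn, iron and copper, 2 (33.3%) were higher and 1 (16.7%) lower. These shares were close to the 35.0% and 19.8% over all tested probe sets. The metal-binding metallothionein MT1C had 13228 and 15039.7 in roots and 3571 and 3906 in shoots, 3.77-fold higher (adjusted p = 5.48e-05). ZIP6, of the family of Zn and iron importers, had 606 and 577 in roots and 226 and 132 in shoots, 3.32-fold higher (adjusted p = 0.00133). Its relative ZIP9 had 187 and 206 in roots and 134 and 109 in shoots and did not pass (adjusted p = 0.0769). MTPA1, of the cation diffusion facilitators, passed as lower (-1.38 on the log2 scale), yet all 4 of its values, 4.17 and 1.00 in roots and 22.5 and 16.3 in shoots, were within background. AT2G04620, of the same class, had 315 and 288 in roots and 289 and 220.4 in shoots and did not pass. CCS, which delivers copper to superoxide dismutase, had 1318 and 994 in roots and 2693 and 268 in shoots, where the shoot arrays lay on either side of both root arrays.

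The 3 symbol families of highest median among the 31 with at least 6 tested members were XTH, GSTU and NET. Their counts, and those of the lowest families, stand beside 35.0% higher and 19.8% lower over all tested probe sets, and the families were picked by these medians. XTH enzymes cut and rejoin xyloglucan in the wall, and 5 of 8 were higher in roots and 1 lower, with a median of 3.09, or 0.81 with organs within background set at 52.2. XTH18 had 1580.5 and 1672 in roots and 103 and 35.0 in shoots, and XTH19 had 1430.5 and 1292 in roots and 148 and 7.23 in shoots. XTH32 ran opposite, with 145 and 138 in roots and 1804 and 2917 in shoots, 15.4-fold lower. XTH33 split the shoot arrays, with 469 and 258 in roots and 1695 and 121 in shoots. Of 10 GSTU glutathione transferases 5 were higher and 3 lower: GSTU28 had 1004 and 1629 in roots and 47.2 and 41.8 in shoots, while GSTU20 had 455 and 644 in roots and 7944 and 5391 in shoots. All 7 tested NET genes, which code for actin-binding proteins, were higher, with a median of 1.93, and 5 of the 7 were higher after either other scaling. NET2D had 297 and 279 in roots and 15.5 and 14.6 in shoots, at least 5.51-fold higher.

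The families of lowest median were RALFL, plastid rps and PDF. RALFL genes code for small signalling peptides, and 4 of 6 were lower in roots and 2 higher. RALFL34 had 986 and 755 in roots and 5497 and 7933 in shoots, 7.59-fold lower. RALFL32 had 2710.2 and 3184 in roots and 633 and 933 in shoots, 3.79-fold higher. The letters PDF join plant defensins to the peptide deformylases PDF1A and PDF1B, and 4 of 7 were lower and 2 higher. PDF1.2 and PDF1.2b stood on the shoot side, and PDF2.1 and PDF2.5 on the root side. PDF2.1 had 1724 and 3109 in roots and 27.1 and 10.1 in shoots, at least 44.3-fold higher, while PDF1.2b had 50.3 and 67.4 in roots and 19940.4 and 12651 in shoots, 239.5-fold lower. PDF1.2 and PDF1.2b are near-identical copies, so their probe sets may share transcripts.

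Genes often used as references for expression were also compared. Of 5 tested, 2 were higher in roots under the authors' scaling, a share near the 35.0% of all tested probe sets. GAPC2, a cytosolic glyceraldehyde phosphate dehydrogenase, had 20251 and 17337 in roots and 12682 and 14402 in shoots (log2 difference 0.47 ± 0.17 SE, adjusted p = 0.0386), and the difference was 0.07 after median centring. AT4G34270, a TIP41-like protein, was 1.73-fold higher (adjusted p = 0.0217). UBC21, a ubiquitin-conjugating enzyme, had 2158 and 1912 in roots and 2676 and 2801 in shoots and did not pass (adjusted p = 0.267). AT2G28390 and AT4G33380 did not pass either. After quantile normalization 1 of the 5 was higher and none lower, and after median centring none was higher and 1 lower.

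Genes of the core response to low oxygen were mostly higher in roots. That set is induced across plant cell types when oxygen falls, and codes for fermentation enzymes, signalling proteins and many proteins of unknown role. The list was added after its values were seen. Of 49 listed loci 26 were tested, of which 18 (69.2%, against 35.0% of all tested probe sets) were higher and 1 lower, with a median of 3.12. Over these 26 genes the summed signal was 90575 and 99190.3 on root arrays and 8025 and 11336 on shoot arrays.

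AT4G39675, of unknown role, had 10986 and 11595 in roots and 2.77 and 31.8 in shoots, at least 216-fold higher (adjusted p = 5.58e-06). AT4G27450 was the second brightest root signal among genes at least 8-fold apart, with 16261 and 14549 in roots and 876 and 887 in shoots, 17.3-fold higher. AT3G03270, a universal stress protein, had 13233 and 12871 in roots and 536 and 699.7 in shoots, 21.0-fold higher. AT5G66985 had 3679.8 and 4586 in roots and 3.41 and 10.8 in shoots, at least 78.6-fold higher. AT1G19530 had 6653 and 9648 in roots and 23.7 and 75.0 in shoots, 156-fold higher. Root and shoot arrays did not overlap in any of these genes, as at every probe set that passed. Pyruvate decarboxylase PDC2, the entry to ethanol fermentation, had 6353 and 4979 in roots and 659 and 1794 in shoots, 5.14-fold higher (adjusted p = 0.0392), and did not pass after median centring (adjusted p = 0.0777). AT3G10040, a transcription factor that restrains the response, was higher by a log2 difference of 4.00 (adjusted p = 0.00858). AT1G72940 was the lower one, with 157 and 159 in roots and 366 and 404 in shoots.

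The Zn-deficient root arrays of the same experiment split on this list. Their first array was below the second for 26 of 26 genes, with sums of 29457 and 129185. AT3G29970, a B12D family protein, shows it: its signal was 70.8 and 6599.9 on the Zn-deficient root arrays and 4897 and 3971 on the control root arrays. This array entered the control contrast through the shared spread. Its signals also counted in the filter on dim signals and in the choice of each gene's brightest probe set. With it left out of the fit and the same probe sets kept, 21 of 26 genes were higher and 1 lower in control roots. The control arrays themselves also mattered: 9 genes were higher without the first shoot array and 11 without the first root array.

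The 21-day wild-type seedlings differed between organs at 10425 of 17059 probe sets (61.1%), of which 6733 (39.5%) were higher in roots and 3692 (21.6%) lower. Of 16202 probe sets tested in both experiments, 3984 were higher in roots in both, which is 68.5% of those higher at 7 weeks and 61.3% of those higher at 21 days. Those lower in both numbered 2445, which is 75.6% of the 7-week list and 69.2% of the 21-day list. Opposite calls were made at 97 probe sets higher at 7 weeks and lower at 21 days, and at 180 with the reverse.

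The root-shoot difference itself differed between the experiments at 4128 of 17059 probe sets (24.2%), more positive at 7 weeks at 2323 (13.6%) and more negative at 1805 (10.6%). The share more positive was 56.3% under the authors' scaling, 51.9% after quantile normalization and 47.4% after median centring. These counts were sensitive to single arrays: leaving out either 7-week root array, or any 1 of the 4 arrays of 21-day wild-type seedlings, gave 2133 to 2549 probe sets. The experiments differ in both age and culture, and these cannot be told apart. Only the root-shoot difference was tested between experiments. Signals of a single organ at both ages are given below to describe, and which organ differed was not tested. The actin 3' to 5' ratio was 2.36 to 4.25 on the 7-week control arrays and 23.7 to 30.3 on the 21-day wild-type arrays; its part in these differences was not tested.

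**Figure D4:**
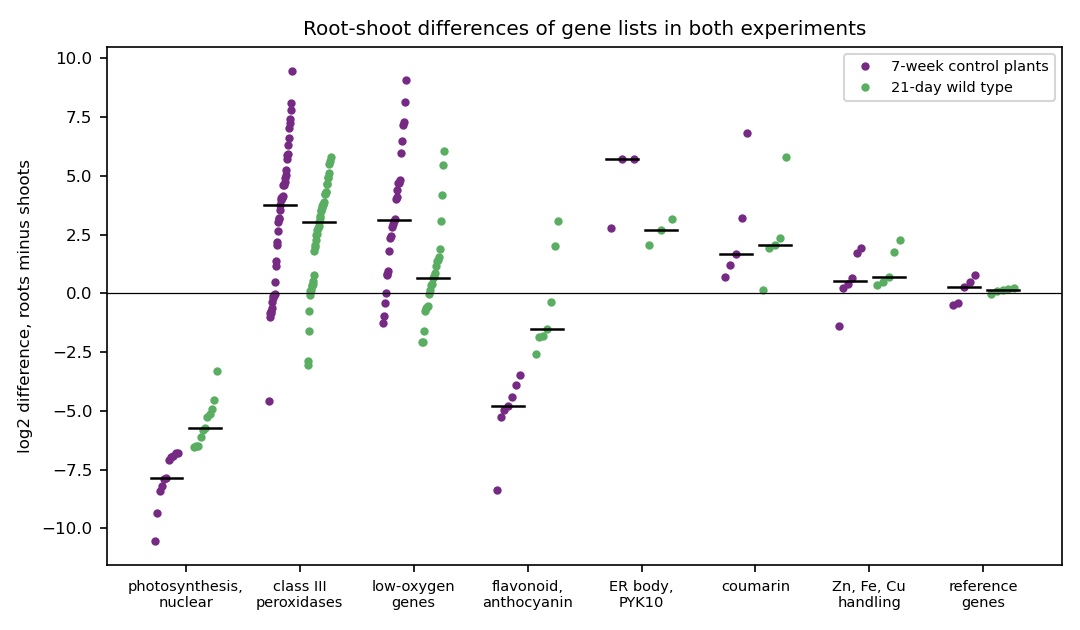
Log2 difference, roots minus shoots, of each tested gene of 8 gene groups in 7-week control plants (purple, left) and 21-day wild-type seedlings (green, right), with medians as bars; values of genes within background in an organ are fitted. Low-oxygen genes have a median of 3.12 at 7 weeks and 0.64 at 21 days, and flavonoid genes -4.80 and -1.54.

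The tested nuclear genes for photosynthesis were lower in roots in both experiments, and most by more at 7 weeks. The difference between experiments passed for 10 of the 11 nuclear genes, SBPASE being the exception (adjusted p = 0.310), where 10.6% of all probe sets were more negative. PSAE-1 had 1.77 and 9.43 in 7-week roots, against 549.7 and 482 in 21-day roots, while shoots had 19968 and 19514 at 7 weeks and 19931 and 19678 at 21 days. Its log2 difference was -10.56 at 7 weeks and -5.24 at 21 days, and the interaction, the 7-week difference minus the 21-day difference, was -5.32 (adjusted p = 2.57e-06). With the 7-week roots set at the background level it was -3.30, a bound that does not rest on the dim root signals. The shoot arrays of both ages lay close together, and the 21-day roots lay far above the 7-week roots. PORB had 10.1 and 6.87 in 7-week roots and 337 and 381 in 21-day roots. LHCB4.3 had 29.0 and 60.7 in 7-week roots and 138 and 122 in 21-day roots. Its shoot signals were 7455 and 6361 at 7 weeks and 1504 and 1217 at 21 days.

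The plastid genes had nearly the same median in both, -3.01 at 7 weeks over 68 genes and -3.04 at 21 days over 67. Of these 67, 9 (13.4%) were more positive at 7 weeks and 6 (8.96%) more negative, shares near the 13.6% and 10.6% of all probe sets. The rps19 to rpoA stretch had a median of -0.39 at 7 weeks and -2.34 at 21 days, and 4 of its 7 genes passed. rpl14 had 199.9 and 217 in 21-day roots and 1054 and 1125 in 21-day shoots, a log2 difference of -2.34, and the interaction was 2.79 (adjusted p = 0.0118). petN, a small subunit of the cytochrome complex, went the other way, with 52.1 and 94.1 in 7-week roots and 2972 and 2203 in 7-week shoots, against 31.2 and 49.3 in 21-day roots and 93.7 and 116 in 21-day shoots (adjusted p = 3.41e-04). The count of plastid genes more positive at 7 weeks was 16 without the first 7-week shoot array, 1 without the second 21-day root array, and 3 to 6 without each of the other arrays of the contrast.

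Low-oxygen genes had a median log2 difference of 3.12 at 7 weeks, over 26 genes, and 0.64 at 21 days, over the 23 that passed the filter there. The median of the differences between experiments, over the same 26 genes, was 2.14. Of the 26, 9 (34.6%) were more positive at 7 weeks, against 13.6% of all probe sets, and none more negative. The count was 15 without the first Zn-deficient root array, and 5 without the second 7-week root array or the first 21-day shoot array. The summed signal was 13384 and 11618 on 21-day root arrays and 9558 and 9705 on 21-day shoot arrays, each far below the 7-week control root arrays and near the 7-week control shoot arrays. AT1G33055 had 6577 and 10058 in 7-week roots, against 134 and 145 in 21-day roots, and the interaction was 5.62 (adjusted p = 0.0126). AT3G29970 had 4897 and 3971 in 7-week roots, against 36.6 and 40.6 in 21-day roots, with an interaction of 5.94 fitted (adjusted p = 0.0345) and 5.65 with organs within background set at 52.2. AT4G27450 had 16261 and 14549 in 7-week roots and 853 and 598 in 21-day roots. AT5G10040 had 3424 and 3403 in 7-week roots and 85.5 and 37.0 in 21-day roots but did not pass (adjusted p = 0.0619).

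Flavonoid and anthocyanin genes had a more negative root-shoot difference at 7 weeks than at 21 days, when their directions were mixed. The list was added after values were seen, and 7 of 20 loci were tested. All 7 were lower in roots at 7 weeks, with a median of -4.80, against -1.54 at 21 days, and the interaction passed as more negative for all 7, where 10.6% of all probe sets did. With organs within background set at 52.2 the 7-week median was -3.89. CHIL, a helper of chalcone synthase, had 13.9 and 10.8 in 7-week roots and 692 and 854 in 7-week shoots, against 2037 and 1954 in 21-day roots and 229 and 227 in 21-day shoots. It was lower in roots at 7 weeks and higher in roots at 21 days, and the interaction was -8.34 ± 0.67 SE (adjusted p = 6.87e-06). The 7-week roots lay within background, and set at that level they gave -7.01. UGT78D2, a flavonoid glucosyltransferase, turned round likewise, with 135 and 132 in 7-week roots and 1808 and 2423 in 7-week shoots, against 1402 and 1301 in 21-day roots and 402 and 269 in 21-day shoots.

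AT4G14090, the anthocyanin glucosyltransferase, was within background in 7-week roots, at 2.48 and 3.86, and had 2837 and 4844 in 7-week shoots, against 53.8 and 34.7 in 21-day roots and 215 and 144 in 21-day shoots. UGT78D1, a flavonol rhamnosyltransferase, had 1.00 and 8.31 in 7-week roots and 307 and 447 in 7-week shoots, against 250.1 and 189 in 21-day roots and 749.9 and 847 in 21-day shoots. DFR, the first enzyme of the anthocyanin branch, had 2144 and 2179 in 7-week shoots and 373 and 357 in 21-day shoots. UF3GT, an anthocyanin xylosyltransferase, and AT5MAT, a malonyltransferase, had interactions of -2.88 and -3.11. With organs within background set at 52.2 the interaction was -4.12 for AT4G14090, against -6.54 fitted, and -0.95 for UGT78D1, against -3.13. Summed over the 7 genes, 7-week roots had 321 and 375, 7-week shoots 10011 and 13382, 21-day roots 3972 and 3600.3, and 21-day shoots 2305 and 2081.

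**Figure D5:**
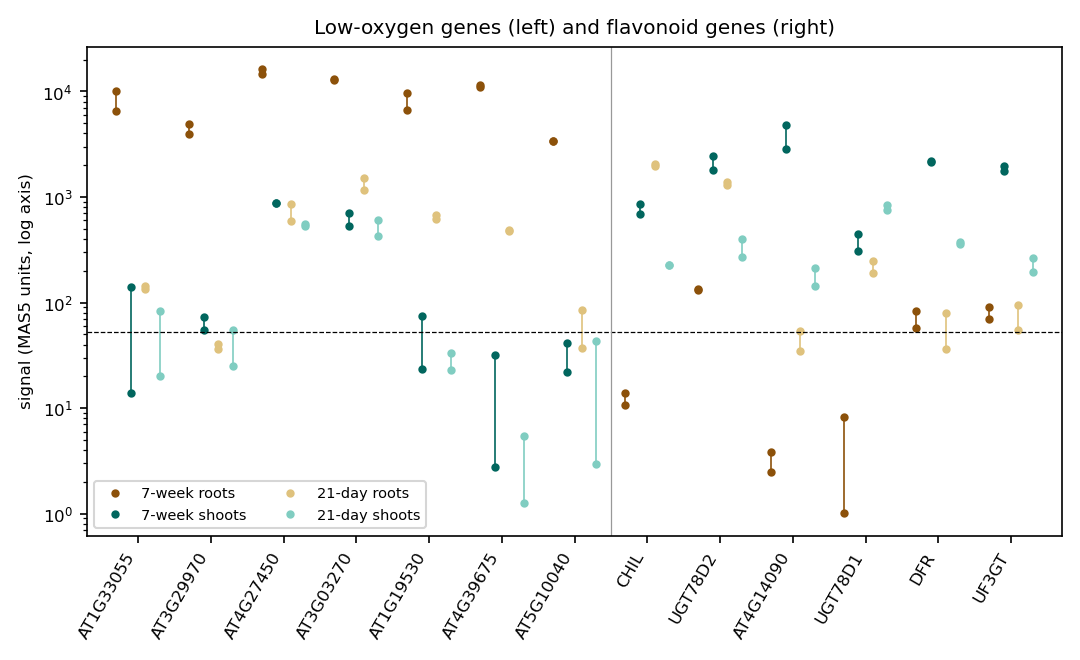
Signal (log axis) on the 2 arrays of 7-week roots (dark brown), 7-week shoots (dark green), 21-day roots (light brown) and 21-day shoots (light green) for 7 low-oxygen genes (left) and 6 flavonoid genes (right), with the background level of 52.2 dashed. The 7 low-oxygen genes drawn, picked with their values known, are highest in 7-week roots. Of all 26 tested on that list, 9 passed as more positive in root-shoot difference at 7 weeks. CHIL and UGT78D2 are higher in shoots at 7 weeks and in roots at 21 days.

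Outside these lists, the most positive differences between experiments were on genes near background in 21-day tissue. AT5G26130, of the family of pathogenesis-related protein 1, had 5455 and 8345 in 7-week roots, against 48.7 and 22.3 in 21-day roots (6.49 fitted, adjusted p = 1.85e-04, and 6.51 with organs within background set at 52.2). AT4G08380, an extensin-like wall protein, had 2040.3 and 2695 in 7-week roots and 19.4 and 38.0 in 21-day roots. The jacalin lectin gene AT1G33790 had 669.8 and 730.1 in 7-week roots and 8.72 and 78.5 in 21-day roots, and the germin-like AT3G05950 had 1400.2 and 2472 in 7-week roots and 46.8 and 27.7 in 21-day roots. All 4 genes were at most 105 units in 7-week shoots. In Zn-deficient 7-week roots AT5G26130 read 5141 and 2794 and AT4G08380 read 1613 and 1501, above background in both media.

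In the other direction, AT3G57020, of the strictosidine synthase-like family, had 33.3 and 88.6 in 7-week roots and 3544 and 3374 in 21-day roots (-6.53, adjusted p = 7.21e-06). AT1G26390, an oxidase of the berberine bridge family, had 14.7 and 25.9 in 7-week roots and 919 and 1112 in 21-day roots. AT5G62210, an embryo-specific protein family member, had 22.6 and 19.1 in 7-week roots and 749 and 584 in 21-day roots. AT1G30250, of unknown role, had 1866 and 3223 in 7-week shoots and 41.1 and 42.0 in 21-day shoots.

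Among the root lists, PYK10 and NAI2 were more root-biased at 7 weeks, and NAI1 was not (adjusted p = 0.919). PYK10 had 63.3 and 187 in 7-week shoots, against 3361 and 4932 in 21-day shoots, and 6519 and 5947 in 7-week roots, against 17602 and 16795 in 21-day roots. Class III peroxidases had a median of 3.77 at 7 weeks over 45 genes and 3.03 at 21 days over 43. Of these 43, 12 (27.9%, against 13.6% of all probe sets) were more positive at 7 weeks and 2 (4.65%, against 10.6%) more negative. With organs within background set at 52.2 the medians were 2.94 and 2.68. The 12 became 7 without the second 7-week root array or either 21-day root array. AT3G03670 was one of the 12, with 4132 and 5002 in 7-week roots and 146 and 205 in 21-day roots. None of the listed coumarin, metal or reference genes, nor the root hair expansins EXPA7 and EXPA18, passed in limma for the difference between experiments. Of these, 1 coumarin gene had an unadjusted p under 0.05. In the whole EXPA family, 1 of 31 families, 4 of 8 tested genes (50%, against 10.6% of all probe sets) were more negative at 7 weeks and none more positive. EXPA was not alone in this. Of 6 tested RALFL genes 5 (83.3%) were more negative and none more positive, with medians of -1.89 at 7 weeks and 0.66 at 21 days. For MT1C and ZIP6 the interactions were -0.35 ± 0.24 SE and -0.04 ± 0.41 SE.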

How the data were processed

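The deposited table holds log2 signals of 16 one-colour ATH1 Affymetrix arrays made with MAS5, per the submitters' processing notes; no version or setting was stated. By their values, the authors' linear signals were scaled to a trimmed mean of 500, with 2% cut at either end. Total RNA was labelled as biotin cRNA, per the labels' protocols. Log2 values were made linear, 8 units (the 10th percentile of all signals) were added and log2 taken again. Probe sets with a mean signal above the 25th percentile in the fit were kept. The test was limma 3.58.1 in R 4.3.3, lmFit and eBayes with an intensity trend, with Benjamini-Hochberg adjustment over 17059 probe sets. The 7-week contrast used the 8 arrays of that experiment, the 21-day contrast its own 8, and their difference all 16. The script was checked on simulated data.

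Of 22810 probe sets, 64 were array controls, 13513 had 1 gene in the platform annotation, 503 several and 8794 none listed. The RefSeq TAIR10.1 gene table matched 13436. Genes outside those matches were not analysed by name, except the mitochondrion-encoded genes, which were matched by symbol. Counts over all probe sets include unmatched ones. Of 354 loci on 21 gene lists, 49 were matched to a probe set in that annotation. A missing match need not mean that the array lacks a probe set for the gene. For 5 lists (nitrogen uptake, other ion transport, root patterning, secondary wall and root triterpenes) none was matched. Of 16 cuticle and wax loci 1 was matched, as was 1 of 15 flower and pollen loci. These matched genes were too dim to test, and the other loci of both lists were not examined. A gene with several probe sets entered with the brightest. Genes were named if they were list members, among the 12 largest changes each way without overlap, among the 8 brightest in each organ at least 8-fold apart, among the 6 largest differences from 21-day seedlings each way, or members of the 3 families of highest or lowest median. Members and lists were chosen with earlier results of these data known, and the peroxidase, low-oxygen and flavonoid lists after values were seen. Alternatives covered scaling, added units, filter, trend, arrays in the fit, replicate block and arrays left out; the first Zn-deficient root array was left out as an alternative chosen after seeing the data.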

Additional observations from a re-analysis of the deposited data

Results flagged for a closer look

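The root-shoot difference of 7-week plants differed from that of 21-day wild-type seedlings at 4128 of 17059 probe sets, by limma's interaction contrast over all 16 arrays with an adjusted p under 0.05. Age and culture cannot be told apart here, and the actin 3' to 5' ratio moved with the experiment; the part of neither was tested. The values below are the 7-week log2 difference minus the 21-day one, for genes named in the report that passed. Of these 70 genes, 41 had an organ within background on both arrays of an experiment, and their values are fitted ones that depend on the 8 units added. With such organs set at 52.2 none of the 41 changed sign, 19 moved by more than 1 log2 unit and 6 lay within 1 unit of 0. Those 6 were AT5G55450 (-0.85), UGT78D1 (-0.95), AT5G03350 (-0.48), AT2G41090 (-0.60), AT5G66390 (0.09) and AT5G17820 (0.28).

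Among nuclear photosynthesis genes the value was -5.32 for PSAE-1, -3.68 for PSBW, -2.29 for PSAN, -2.12 for PSBY and -1.66 for ATPC1. It was -3.79 for LHCB4.3, -2.83 for LHCB4.2, -1.85 for LHCB4.1, -1.39 for PRK and -1.11 for RCA. AT2G26500 stood at -3.87, PORB at -3.51, APL3 at -1.78 and AT4G01150 at -1.69. Of the organelle genes, petN stood at -3.79, psbA at -1.40, rps19 at 2.28, rpl14 at 2.79 and nad9 at 1.63. The positive values of FAMA, LYC and AT1G80380 were 1.64, 1.64 and 2.60.

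Flavonoid genes had values of -8.34 for CHIL, -6.54 for AT4G14090, -5.90 for UGT78D2, -3.13 for UGT78D1, -3.11 for AT5MAT, -2.88 for UF3GT and -2.21 for DFR. Low-oxygen genes had values of 5.94 for AT3G29970, 5.62 for AT1G33055, 3.72 for AT4G27450, 3.63 for AT4G39675, 3.1 for AT1G19530 and 3.02 for AT3G03270. The low-oxygen genes of the first Zn-deficient root array stood apart from the second, as described for that list.

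Of genes high in roots, AT5G26130 stood at 6.49, AT4G08380 at 6.37, AT1G33790 at 6.28 and AT3G05950 at 4.96. AT1G12010 stood at 4.69, AT4G15390 at 4.35, AT5G26280 at 4.04, AT4G33720 at 3.66, AT5G43520 at 3.65 and AT3G19390 at 3.54. The peroxidases AT3G03670, AT3G01190, AT5G64100, AT5G17820 and AT5G66390 had values of 4.23, 3.85, 3.13, 2.32 and 2.3. PYK10 stood at 3.65, NAI2 at 2.54, AT4G22212 at 2.01, GSTU28 at 1.43 and AT1G26250 at 1.35.

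More negative values at 7 weeks were -6.53 for AT3G57020, -6.26 for AT1G26390, -6.19 for AT5G62210 and -6.10 for AT1G30250. COR15A stood at -3.98, XTH32 at -3.65, AT5G55450 at -3.47, AT5G38980 at -3.28 and PDF1.2 at -3.17. AT5G03350 stood at -2.49, AT2G41090 at -1.90, RALFL32 at -1.78, GSTU20 at -1.75, RALFL34 at -1.51 and PDF1B at -1.22. Every group held 2 arrays, so no array was tested as an outlier within its group.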

How the results depend on the processing

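Whether same-numbered root and shoot samples are pairs is not given in the labels. The correlation of same-numbered arrays' deviations was 0.037 in the 7-week control groups and 0.080, 0.122 and -0.009 in the other pairs of groups. With 2 arrays per group these values cannot settle the pairing, and the main fit did not use it. With the replicate block 6083 probe sets were higher in roots and 3444 lower, and the difference from 21-day seedlings held 2424 and 1925. No named gene changed from a call in one direction to a call in the other under any alternative. With 1 array left out at a time, 6446 to 8868 probe sets passed, 3892 to 5636 higher in roots (the fewest without the first root array) and 2554 to 3232 lower. For the difference from 21-day seedlings the range was 2133 to 4077, with 1106 to 2283 more positive and 1027 to 1794 more negative. Higher in roots were 29 to 32 peroxidases, 9 to 21 low-oxygen genes, 3 to 4 coumarin genes, 2 to 3 metal genes and 0 to 2 reference genes. Lower in roots were 51 to 60 plastid genes, 7 flavonoid genes, 5 photosystem genes, 1 to 3 peroxidases and 0 to 1 each of metal and low-oxygen genes. For the difference from 21-day seedlings, more positive were 7 to 12 peroxidases, 5 to 15 low-oxygen genes, 1 to 16 plastid genes and 0 to 1 each of coumarin and metal genes. More negative were 6 to 7 flavonoid genes, 5 photosystem genes, 3 to 8 plastid genes, 0 to 3 peroxidases and 0 to 1 coumarin genes. The lower metal gene MTPA1 was lost (0 lower) with the 30th percentile added or with only the 4 control arrays. Reference genes higher in roots numbered 1 after quantile normalization, without a filter, without the trend or with only the 4 control arrays, and 0 after median centring, with 1 lower. Peroxidases lower in roots numbered 4 after median centring and 1 without a filter or with the filter at the 50th percentile. For the difference from 21-day seedlings, the peroxidases more negative numbered 4 after quantile normalization or with the 30th percentile added, and 1 with 1 unit added or with the filter at the 50th percentile. There too, 5 plastid genes were more positive without the trend, 12 were more negative and 1 coumarin gene more positive with the 30th percentile added, and 15 low-oxygen genes were more positive without the first Zn-deficient root array. The causes were not tested. Signals within background limit what can be said of dim genes: folds there are bounds only.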
